A study of Mus musculus with 6 samples.

Results

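The receptors and the ectoenzyme through which macrophages sense and remove extracellular nucleotides and adenosine were examined in PP2Ac-deficient bone marrow-derived macrophages (BMDM). The set was chosen by name and holds 10 genes of the 55453 in the count table: the ATP-gated channels P2rx4 and P2rx7, the G protein-coupled nucleotide receptors P2ry2, P2ry6, P2ry12, P2ry13 and P2ry14, the adenosine receptors Adora2a and Adora2b, and Entpd1, which encodes CD39. RNA-Seq of poly(A) RNA had been done on 6 libraries of C57BL/6 BMDM, which are macrophages grown from marrow in culture. There were 3 libraries from mice labelled PP2A KO, named PP2Ac-KO here, and 3 from WT mice. The knockout mice are LysM-cre PP2Ac fl/fl animals, in which the lysozyme 2 promoter drives Cre in myeloid cells. Exon 1 of Ppp2ca, the gene of the catalytic subunit of protein phosphatase 2A, is floxed in them. The study had these mice from the University of Michigan and its WT C57BL/6 mice from The Jackson Laboratory. Loss of PP2Ac, Cre and colony of origin therefore cannot be told apart here. The study describes its BMDM for RNA-Seq as given cGAMP, an agonist of STING, in both genotypes, while the labels give no treatment, age or sex. Nothing says whether replicates are separate animals or cultures, so that p-values measure only the spread between these libraries.

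Cells that are stressed, dying or activated release ATP, ADP, UTP and UDP, which act on neighbouring macrophages through P2X channels and P2Y receptors. CD39 hydrolyses ATP and ADP to AMP, CD73 (Nt5e) hydrolyses AMP to adenosine, and adenosine acts on its own G protein-coupled receptors, which in macrophages are known for restraining inflammatory output through cyclic AMP. In macrophages and their relatives P2rx7 is best known for triggering the NLRP3 inflammasome, P2ry6 for uptake of debris, P2ry2 for sensing dying cells, and P2ry12 for marking resting microglia.

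Library totals ran from 35257156 to 47390899 counts, and 13680 genes passed the filter on low counts, all 10 of the set among them. Ppp2ca had 47, 33 and 38 counts in PP2Ac-KO and 10654, 8913 and 8279 in WT, matching the genotype labels. The 7 macrophage markers summed to 7294 to 7483 CPM (counts scaled to a common library size with TMM factors) in PP2Ac-KO and 6170 to 6801 CPM in WT, of which Lyz2, the gene whose promoter drives Cre, gave 6.58 to 10.1 CPM. This is low for a macrophage gene, and how reads shared with its paralog Lyz1 were counted is not given in the sources used here. Of the markers of other cells, 5 fibroblast genes summed to 23.3 to 34.96 CPM in PP2Ac-KO and 76.5 to 120.6 CPM in WT, and all 5 were lower in PP2Ac-KO. In bulk samples such as these, fewer cells of a type and less RNA per cell cannot be told apart. Lists for T and NK cells, B cells, neutrophils and mast cells summed to under 2 CPM in every library, with Cd8a, Ly6g and Mcpt4 at 0 throughout, and the 5 dendritic cell markers to at most 2.36 CPM.

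Loss of PP2Ac went with higher RNA of 6 of the 10 genes and lower RNA of 2. Adora2b was 3.66-fold higher, the P2Y12-type receptors P2ry12, P2ry13 and P2ry14 were 2.44-, 2.36- and 2.29-fold higher, Adora2a was 2.00-fold higher, and P2rx4 was 1.25-fold higher. P2ry2 was 1.61-fold lower and P2rx7 was 1.15-fold lower, while P2ry6 and Entpd1 did not pass the test. A gene was called at an adjusted p under 0.05 (edgeR, quasi-likelihood test, Benjamini-Hochberg over all genes tested). Of the 13680 genes, 18.1% were called higher and 19% lower, 37.1% in all, so that a call by itself was common in this comparison. The counts called on each list of related genes below stand beside these same shares. The 10 genes had a median log2 fold change of 0.66, against -0.02 over all genes tested. At a log2 fold change over 1 and an adjusted p under 0.01, Adora2b, P2ry12, P2ry13 and P2ry14 were called higher, against 3.36% of all genes, and none of the 10 was called lower, against 2.99%. The PP2Ac-KO libraries lay wholly above WT for 6 of the 10 and wholly below for 3, against 24% and 26.8% of all genes (50.9% either way). With upper-quartile scaling, 2095 genes were called higher and 3356 lower, in place of 2470 and 2604, and the same 6 and 2 of the set were called in the same direction, with Entpd1 called lower beside them. With the replicate number as a block in the model, calls rose over all genes, to 3343 higher (24.4%) and 3615 lower (26.4%), 50.9% in all, so that a call gained with the block was common too.

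**Figure D1:**
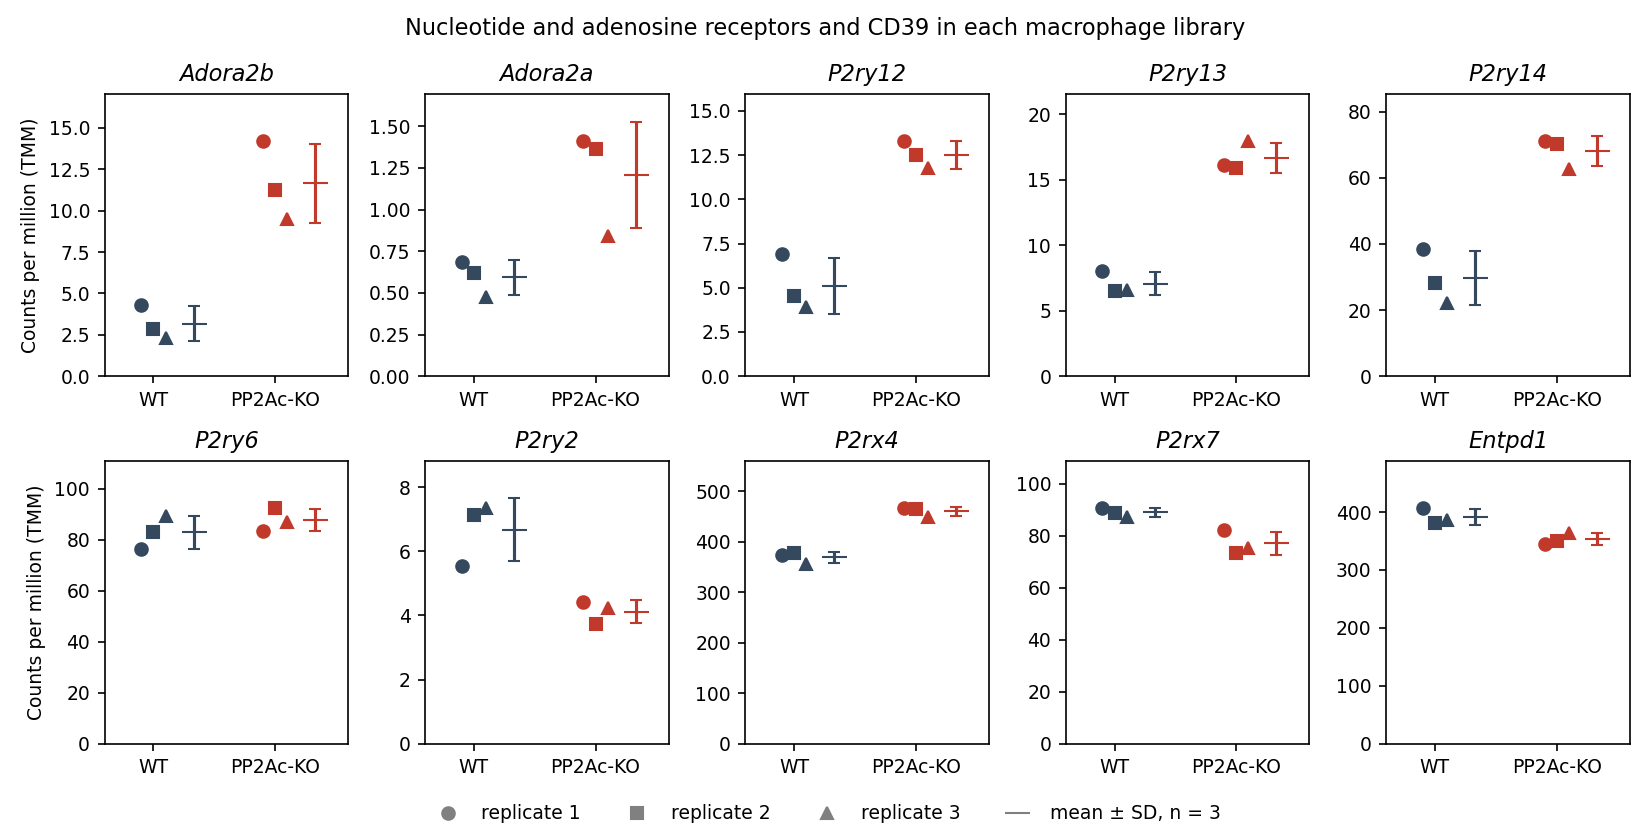
CPM scaled by TMM (y axis, from 0, its own range in each panel) for the 10 genes in the 3 WT and 3 PP2Ac-KO libraries. Symbols are single libraries and the bar beside them is the mean ± SD (n = 3). The 2 genotypes overlap only for P2ry6, and Adora2b runs from 2.29 to 4.33 CPM in WT and from 9.51 to 14.2 CPM in PP2Ac-KO.

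The adenosine receptors couple to the stimulatory G protein and raise cyclic AMP, Adora2a at low adenosine and Adora2b at the higher adenosine of damaged or hypoxic tissue. Adora2b (chromosome 11, 62248984 to 62266453, forward strand, GRCm38) had 14.2, 11.2 and 9.51 CPM in PP2Ac-KO replicates 1, 2 and 3 and 4.33, 2.87 and 2.29 CPM in the WT replicates. All knockout libraries stood above all WT libraries, and the lowest of them, at 9.51 CPM, was well clear of the highest WT value. The log2 fold change was 1.87 (SE 0.22, n = 3 and 3, adjusted p = 0.000314 by edgeR), the largest of the 10. Adora2a (chromosome 10, 75316877 to 75334784, forward strand) was a low-abundance transcript, with 60, 45 and 35 counts in PP2Ac-KO and 34, 27 and 20 in WT. These are 1.41, 1.36 and 0.839 CPM against 0.684, 0.621 and 0.477 CPM, and the lowest knockout library was not far above the highest WT library. The log2 fold change of Adora2a was 1.003 (SE 0.27, adjusted p = 0.0162 by edgeR). Its call was lost without PP2Ac-KO replicate 1 (0.85, adjusted p = 0.0690 by edgeR) and without PP2Ac-KO replicate 2 (0.92, adjusted p = 0.0595 by edgeR). The tested neighbours of Adora2a within 50 kb, Specc1l (0.17, SE 0.10) and Gucd1 (-0.14, SE 0.06), were not called. With the replicate block both were (adjusted p = 0.00666 and 0.0479 by edgeR). Specc1l was also called without WT replicate 1 (0.27), and Gucd1 with upper-quartile scaling (-0.20).

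Both adenosine receptors were higher, and their ratio, which needs no library scaling, was set side by side after the values had been seen. Adora2b had 10.1, 8.24 and 11.3 counts for each count of Adora2a in PP2Ac-KO and 6.32, 4.63 and 4.80 in WT, with no length correction. The log2 difference was 0.91, and 0.81 to 1.06 with 1 library left out. The exact permutation test gave p = 0.1 (two-sided), the smallest that 3 against 3 libraries allow.

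The genes whose pattern over the 6 libraries was most like that of Adora2b, by the root mean square difference of log2 CPM centred on each gene's mean, were Cd40, a costimulatory receptor of the TNF receptor family, at 0.074, Fpr2, a formyl peptide receptor, at 0.078, and A330040F15Rik at 0.090. The median difference over all genes tested was 1.02, and genes picked as the nearest lie below it by construction. Specc1, within 50 kb of Adora2b, was lower (log2 fold change -0.60, SE 0.09), and the neighbours Zswim7, Ttc19 and Ncor1 did not pass the test. The targeted gene Ppp2ca lies on the same chromosome 11, at 52098681 to 52127778. A part of DNA linked to the floxed allele in the result of Adora2b was not tested.

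The P2Y12-type receptors couple to the inhibitory G protein and lower cyclic AMP. P2ry12 and P2ry13 respond to ADP, and P2ry14 to UDP-glucose and related UDP-sugars. They lie side by side on the reverse strand of chromosome 3 (GRCm38), P2ry14 from 59113855 to 59153618, P2ry13 from 59207892 to 59210882 and P2ry12 from 59216272 to 59262871, all inside the gene Med12l of the opposite strand. Since the neighbours moved together, the 250 bases before their RefSeq transcription starts (GRCm38.p6, reverse strand, written 5′ to 3′) are shown, with capitals for the PU.1 core GAGGAA and the AP-1 letters TGANTCA. For P2ry14, 1 of its 4 RefSeq starts is shown, and RefSeq starts need not be those of the coordinates above. The windows are chr3:59262986-59263235 for P2ry12, chr3:59210883-59211132 for P2ry13 and chr3:59153493-59153742 for P2ry14.
P2ry12: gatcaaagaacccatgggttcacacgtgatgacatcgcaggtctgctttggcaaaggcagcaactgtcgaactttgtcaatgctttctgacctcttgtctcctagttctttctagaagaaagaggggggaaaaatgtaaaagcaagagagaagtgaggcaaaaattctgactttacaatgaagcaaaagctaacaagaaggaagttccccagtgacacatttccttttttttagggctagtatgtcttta
P2ry13: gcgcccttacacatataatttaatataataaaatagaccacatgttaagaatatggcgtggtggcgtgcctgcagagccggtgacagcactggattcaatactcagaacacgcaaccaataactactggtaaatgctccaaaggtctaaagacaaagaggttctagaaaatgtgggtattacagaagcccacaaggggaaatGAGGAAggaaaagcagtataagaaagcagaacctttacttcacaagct
P2ry14: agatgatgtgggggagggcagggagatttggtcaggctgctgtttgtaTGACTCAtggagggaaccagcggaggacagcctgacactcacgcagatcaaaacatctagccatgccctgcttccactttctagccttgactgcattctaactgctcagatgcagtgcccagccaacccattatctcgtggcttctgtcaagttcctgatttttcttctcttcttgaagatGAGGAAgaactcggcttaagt
The P2ry13 window holds the PU.1 core at bases -48 to -43 from the start. The P2ry14 window holds it at -21 to -16 and the AP-1 letters, here TGACTCA, at -202 to -196, and the P2ry12 window holds neither.

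Motifs were searched on both strands in windows of 300 bases (250 before and 50 after each start), of which RefSeq gave 14 for 8 of the 10 genes. P2ry6 and Adora2a had none in the table. The PU.1 core GAGGAA stood in 8 of the 14 windows (of Entpd1, P2rx7, P2ry13 and P2ry14), against 28.3% of 32851 promoters. The AP-1 letters TGANTCA stood in 3 (of P2rx7 and P2ry14), against 7.81% of all promoters. The ISRE core GAAANNGAA, the GAS letters TTCNNNGAA, the cyclic AMP response element TGACGTCA and the NF-kB form GGGANTTTC stood in none of the 14, against 8.56%, 8.30%, 1.79% and 1.11% of all promoters. Windows of 1 gene can overlap, and a match of letters is not a bound site.

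P2ry13 had 16.1, 15.9 and 18.0 CPM in PP2Ac-KO and 8.05, 6.51 and 6.61 CPM in WT. Its groups were well apart, and its log2 fold change of 1.24 had the smallest error of the neighbours (SE 0.10, adjusted p = 7.19e-05 by edgeR). P2ry12 had 13.3, 12.5 and 11.7 CPM in PP2Ac-KO and 6.88, 4.51 and 3.89 CPM in WT. Its knockout libraries were close together and the WT libraries more spread, without overlap (log2 fold change 1.29, SE 0.18, adjusted p = 0.000663 by edgeR). P2ry14, the most counted of them, had 71.3, 70.2 and 62.8 CPM in PP2Ac-KO and 38.4, 28.3 and 22.2 CPM in WT. Again WT replicate 1 was the highest of its group and still below each knockout library (1.20, SE 0.16, adjusted p = 0.000567 by edgeR). With any library left out, the log2 fold changes stayed at 1.13 to 1.58 for P2ry12, 1.18 to 1.35 for P2ry13 and 1.03 to 1.43 for P2ry14, all called.

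Further genes of the locus were higher too. Gpr171, a G protein-coupled receptor of the same branch, rose by 1.16 on the log2 scale (SE 0.17), from 9.22, 5.96 and 5.49 CPM in WT to 15.4, 15.3 and 15.9 CPM in PP2Ac-KO. Med12l, a paralog of a Mediator subunit, had 8.70, 6.09 and 5.01 CPM in PP2Ac-KO and 1.95, 1.29 and 0.668 CPM in WT (2.32, SE 0.32, adjusted p = 0.000618 by edgeR). Only 9 of the 2546 exonic bases of P2ry12 (0.354%) overlap exons of Med12l, and none of P2ry13, P2ry14 or Gpr171 do. Whether the counting used the strand is not given in the sources used here. Overlap of exons does not cover reads from unspliced RNA, and a part of such reads in these counts was not tested. Within 1 Mb of P2ry13, 11 genes were tested. All 5 in the locus were called higher, and of the 6 outside it 2 were called higher (Selenot, 0.47, and Tsc22d2, 0.22), 4 were not called and 0 were called lower.

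**Figure D2:**
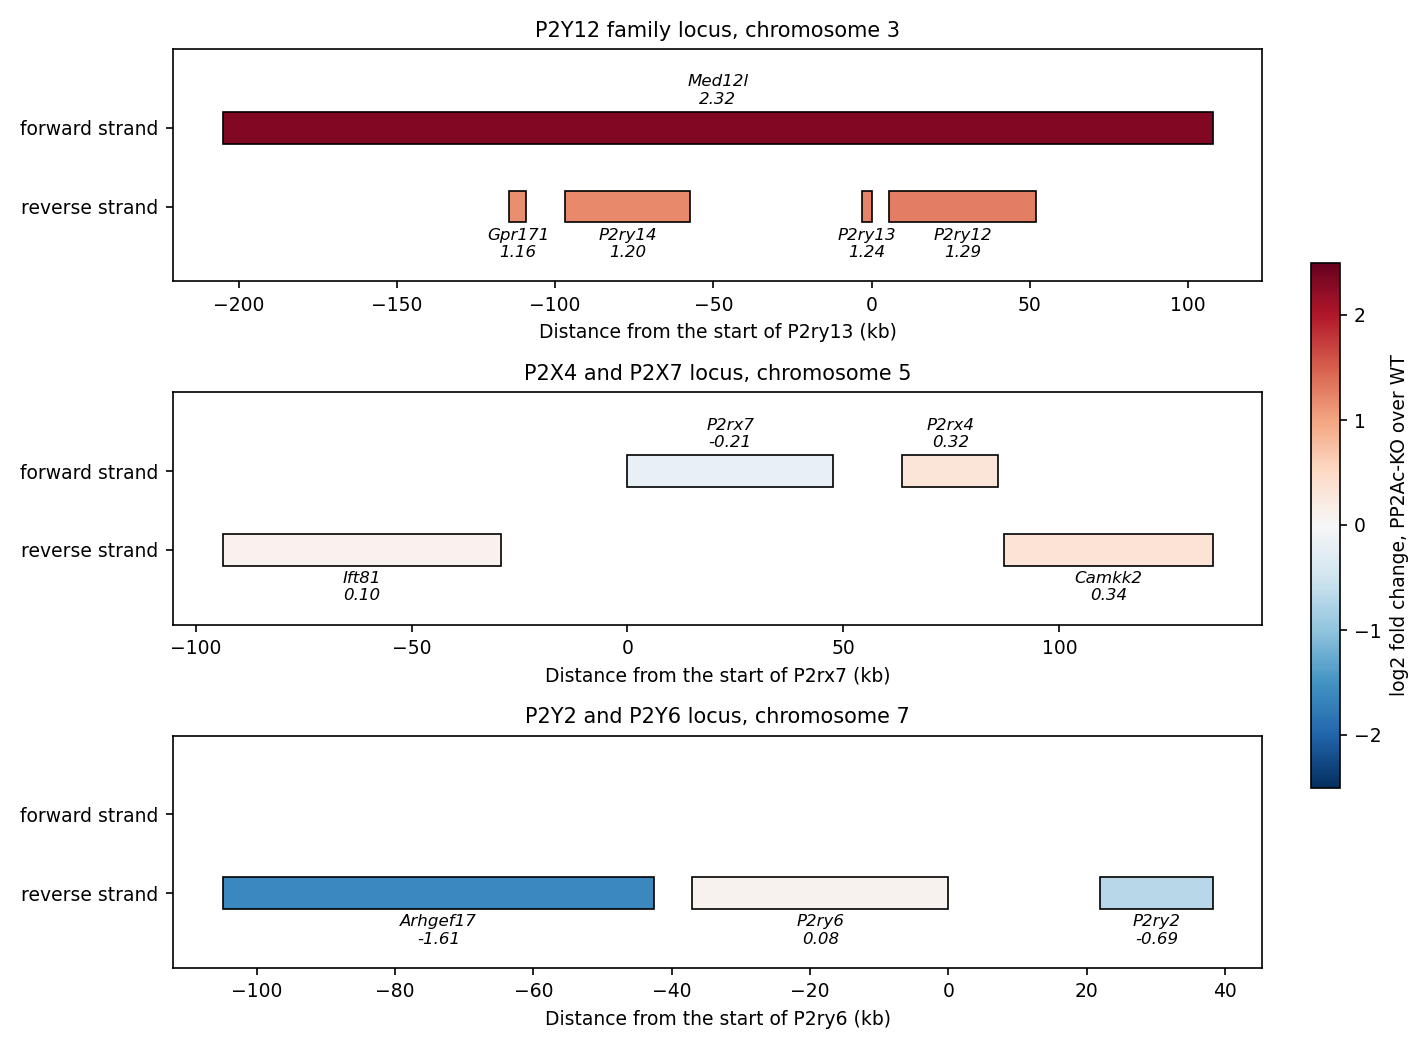
Genes at 3 receptor loci, drawn to scale by distance from the start of P2ry13, P2rx7 or P2ry6 (x axis, kb) and by strand (y axis), coloured and labelled by log2 fold change of PP2Ac-KO over WT. On chromosome 3 each tested gene drawn is red (1.16 to 2.32), while P2rx7 and P2rx4 on chromosome 5 have opposite signs (-0.21 and 0.32).

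P2ry12, like P2ry1, is also a platelet receptor, and it marks microglia. The 4 platelet and megakaryocyte markers summed to 3.94 to 6.53 CPM in PP2Ac-KO and 7.55 to 9.96 CPM in WT, and their part in the result of P2ry12 was not tested. Of the 3 tested, Itga2b and Ppbp were called lower, and both calls were lost without PP2Ac-KO replicate 2 (-0.50 and -0.60) or WT replicate 2 (-0.52 and -0.67), that of Itga2b also without PP2Ac-KO replicate 3 (-0.56). Of the 8 microglial markers, Sall1 was at 0 in all libraries and Tmem119 at 1.01 to 2.16 CPM. Of the 7 tested, 4 were higher, among them Siglech (0.97), Fcrls (0.74) and Olfml3 (0.59), while Gpr34, a receptor of the same branch as P2ry12, was lower (-1.42, SE 0.27) and the median was 0.22. Siglech, under 1 CPM in every library, lost its call without any 1 of PP2Ac-KO replicates 2 and 3 and WT replicates 2 and 3 (0.85 to 0.97), and Olfml3 without PP2Ac-KO replicate 1 (0.54) or 2 (0.51). Without PP2Ac-KO replicate 2 the count called higher was 1, without replicate 3 or WT replicate 2 or 3 it was 2, and with the replicate block Tmem119 was called lower too (adjusted p = 0.039 by edgeR).

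The other P2Y receptors of the set, P2ry2 and P2ry6, couple to phospholipase C and calcium release. P2ry2 responds to ATP and UTP, and P2ry6 to UDP. They are neighbours on the reverse strand of chromosome 7, P2ry6 from 100937630 to 100974649 and P2ry2 from 100996568 to 101012866. P2ry2 had 4.41, 3.73 and 4.22 CPM in PP2Ac-KO and 5.56, 7.13 and 7.35 CPM in WT. No knockout library reached the lowest WT library (log2 fold change -0.69, SE 0.13, adjusted p = 0.00348 by edgeR), and the value ran from -0.81 to -0.61 with 1 library left out, called each time. The fibroblast markers were lower in the same libraries, and their part in the result was not tested. P2ry6 had 83.5, 92.3 and 87.0 CPM in PP2Ac-KO and 76.3, 83.1 and 89.3 CPM in WT. Its genotypes overlapped (0.08, SE 0.07, adjusted p = 0.431 by edgeR). Arhgef17, on the far side of P2ry6, was lower (-1.61, SE 0.30) at 0.364 to 1.72 CPM. The genes most like P2ry2 in pattern were Tigd5, Cxxc5 and Btbd6, with root mean square differences of 0.066, 0.073 and 0.074, against a median of 0.39 over all genes tested. These too were picked as the nearest and lie below the median by construction.

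P2rx4 and P2rx7 form ATP-gated cation channels, P2rx4 opening at low ATP and held largely in lysosomes, P2rx7 opening at high ATP and driving potassium loss. The genes lie 16112 bp apart on the forward strand of chromosome 5, P2rx7 from 122643911 to 122691432 and P2rx4 from 122707544 to 122729738. P2rx4 had 466, 464 and 449 CPM in PP2Ac-KO and 374, 377 and 356 CPM in WT. The replicates were tight and the groups apart (log2 fold change 0.32, SE 0.06, adjusted p = 0.00364 by edgeR), a rise of 24.7%. P2rx7 had 82.3, 73.5 and 75.4 CPM in PP2Ac-KO and 90.7, 89.0 and 87.4 CPM in WT. The gap between its groups was small, and the log2 fold change was -0.21 (SE 0.06, adjusted p = 0.0280 by edgeR). That call was lost with RLE scaling (adjusted p = 0.0559 by edgeR) and in DESeq2 (adjusted p = 0.0654). It was also lost without PP2Ac-KO replicate 2 (-0.17), PP2Ac-KO replicate 3 (-0.19) or WT replicate 2 (-0.21), at adjusted p = 0.128, 0.0987 and 0.0825 by edgeR.

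The ratio of the channels, which needs no scaling between libraries, was lower in PP2Ac-KO, as a rise of P2rx4 alone would also make it. P2rx7 had 0.176, 0.158 and 0.168 counts for each count of P2rx4 in PP2Ac-KO and 0.242, 0.236 and 0.245 in WT. The groups were far apart relative to their spread (log2 difference -0.53, exact two-sided permutation p = 0.1, the smallest possible here), and the difference was -0.57 to -0.49 with 1 library left out. This ratio was also added after the values had been seen. Camkk2, a calcium- and calmodulin-dependent kinase gene that ends 1432 bp from P2rx4 on the other strand, was higher by a like amount (0.34, SE 0.07), and Ift81, beside P2rx7, did not pass the test.

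Entpd1 (chromosome 19, 40612366 to 40741602, forward strand) encodes CD39, the enzyme that starts the breakdown of extracellular ATP. It had 346, 350 and 365 CPM in PP2Ac-KO and 407, 381 and 386 CPM in WT. Every knockout library was below every WT library, but the log2 fold change was small and not called (-0.15, SE 0.06, adjusted p = 0.102 by edgeR). It was called once the replicate number entered as a block (adjusted p = 0.0185 by edgeR), and with upper-quartile scaling (-0.21, adjusted p = 0.0230 by edgeR). Its neighbours Tctn3 (-0.54) and Aldh18a1 (-0.40) were lower, the latter not called without PP2Ac-KO replicate 2 (-0.34) or WT replicate 2 (-0.37). A further neighbour, Cc2d2b, did not pass the test (0.11, SE 0.39).

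**Figure D3:**
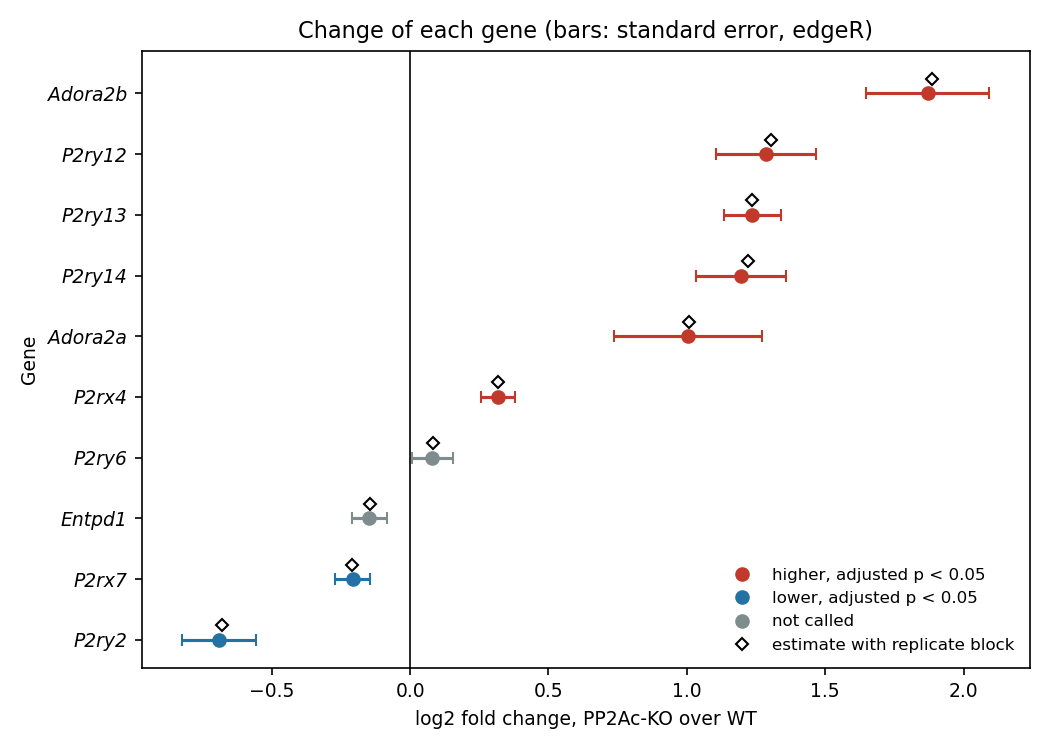
Log2 fold change of PP2Ac-KO over WT (x axis) for each of the 10 genes (y axis). Bars are the standard error derived from the edgeR F statistic, and open diamonds are the estimate with the replicate block. The values run from -0.69 for P2ry2 to 1.87 for Adora2b, and the block moved no estimate by more than a fraction of its error.

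Between genes, levels were compared as RPKM (TMM-scaled CPM divided by the exonic length in kb). In WT the order was Entpd1 (70.1 ± 2.48, SD, n = 3), P2rx4 (52.5 ± 1.61), P2ry6 (28.7 ± 2.26) and P2rx7 (14.9 ± 0.28), each apart from the next. P2ry13 (2.79), P2ry14 (2.68), P2ry12 (2.00), Adora2b (1.71) and P2ry2 (1.70) followed, and each overlapped its neighbour in the order. Adora2a was last at 0.194 RPKM. In PP2Ac-KO, P2rx4 (65.5 ± 1.33) and Entpd1 (63.3 ± 1.80) overlapped at the top, followed by P2ry6 (30.3) and P2rx7 (12.9). P2ry13 (6.59), Adora2b (6.32) and P2ry14 (6.16) came next, each overlapping its neighbour in the order. P2ry12 (4.91) was apart from P2ry14 but overlapped the more spread Adora2b. P2ry2 (1.05) stood apart, and Adora2a (0.394) was again last. The leading genes of both genotypes were thus the ATP-gated channel P2rx4 and the ATP-degrading Entpd1. P2ry2 overlapped Adora2b in WT and stood below it in PP2Ac-KO, each gene having been called in the opposite direction.

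Of 11 further nucleotide and adenosine receptors, 5 passed the filter and 0 were called by edgeR (median -0.28). At an unadjusted p under 0.05 there were 1 higher and 1 lower (P2ry10 and P2ry1), while DESeq2 called 1 higher and 0 lower and limma-voom 0. P2ry10b was the most counted at 16.8 to 21.7 CPM. Adora3 had 0.863 to 1.40 CPM, P2rx1 had 0.189 to 0.506 CPM, and Adora1 was at 0 counts in all libraries. P2ry10 had 0.382 to 1.97 CPM, with the genotypes overlapping, and P2ry1 had 1.67 to 4.34 CPM without overlap. With the replicate block, where 50.9% of all genes were called, P2ry1, an ADP receptor coupled to calcium release, was called lower (-0.59, adjusted p = 0.0187 by edgeR) and P2ry10 higher (0.97, adjusted p = 0.00737 by edgeR). With 1 library left out, P2ry1 ran from -0.79 (called, without WT replicate 1) to -0.32 (not called, without WT replicate 3), and P2ry10 from 1.32 (called, without PP2Ac-KO replicate 3) to 0.58 (not called, without PP2Ac-KO replicate 2), while P2ry10b was called higher without WT replicate 1 (0.23) and in no other of these fits.

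Downstream of CD39, Nt5e (CD73) had 3.61, 4.33 and 3.81 CPM in PP2Ac-KO and 11.7, 12.6 and 10.1 CPM in WT. It was 2.94-fold lower without overlap (log2 fold change -1.55, SE 0.12, adjusted p = 5.51e-05 by edgeR). Nt5e is also a fibroblast gene, and the fibroblast markers fell in the same libraries (median -1.95), a part in the result that was not tested. Acpp, whose membrane form is a further AMP phosphatase, was lower at 1.46, 1.15 and 1.20 CPM against 3.64, 3.27 and 2.53 CPM (-1.30, SE 0.19). Enpp4, which cleaves dinucleoside polyphosphates, had 186, 158 and 136 CPM in PP2Ac-KO and 77.8, 48.9 and 37.1 CPM in WT. It was 2.93-fold higher (1.55, SE 0.23, adjusted p = 0.000942 by edgeR). Enpp1, which makes AMP from ATP and hydrolyses extracellular cGAMP, was not called (-0.13, SE 0.08). Of the 9 genes of this list, 4 were tested, 1 was higher and 2 were lower (median -0.72), and Entpd2, Entpd3, Entpd8, Enpp3 and Alpl were at under 1 CPM in every library. Of the intracellular relatives of CD39, Entpd5 was lower (-0.28, SE 0.06) and Entpd6 and Entpd7 were not called (median 0.04). Entpd4 and Entpd4b, which share all their exonic sequence, were listed at 0.

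Adenosine leaves the extracellular space through nucleoside transporters and is then phosphorylated or deaminated. Of 8 such genes, 3 were higher and 0 were called lower by edgeR (median 0.12), against 2 at an unadjusted p under 0.05, 1 in DESeq2 and 0 in limma-voom. Slc28a2, a concentrative nucleoside transporter, had 36.1, 33.2 and 34.1 CPM in PP2Ac-KO and 17.9, 12.8 and 13.02 CPM in WT (1.24, SE 0.12). Pnp, which splits the inosine made from adenosine, was higher by 1.01 (SE 0.12), as was its near copy Pnp2 by 1.43 (SE 0.18), and 28.5% of 50-base windows of Pnp2 also occur in Pnp, so that the division of reads between them is uncertain. Ada (-0.07), which deaminates adenosine, and Adk (0.01), which phosphorylates it, were not called. With the replicate block, which also called 24.4% of all genes higher and 26.4% lower, the equilibrative transporters were called, Slc29a3 higher (0.22) and Slc29a1 (-0.17) and Slc29a2 (-1.05) lower, at adjusted p = 0.00162, 0.0176 and 0.00381 by edgeR. Without WT replicate 1 the same calls were made, and with 1 library left out the values ran from 0.16 to 0.32 for Slc29a3, -0.23 to -0.14 for Slc29a1 and -1.43 to -0.71 for Slc29a2. Slc29a2 had 0.306 to 1.43 CPM, and its genotypes overlapped, as did those of Slc29a3.

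Of 10 genes for nucleotide release, 7 were tested, 1 was higher and 3 were lower (median -0.23). Lrrc8c, a subunit of the volume-regulated anion channel, was higher (0.62, SE 0.12), while its relatives Lrrc8a (-0.50, SE 0.09) and Lrrc8d (-0.22, SE 0.06) and the connexin gene Gja1 (-0.68, SE 0.17) were lower. The call of Lrrc8d was lost without PP2Ac-KO replicate 2 (-0.21), PP2Ac-KO replicate 3 (-0.20) or WT replicate 2 (-0.19). With the replicate block 5 were lower, where 26.4% of all genes were, the pannexin channel Panx1 (adjusted p = 0.0192 by edgeR) and the vesicular nucleotide transporter Slc17a9 (adjusted p = 0.0309 by edgeR) added.

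Of 28 genes for G proteins and second messengers, 8 were higher and 6 lower (median 0.04), against 18.1% and 19% of all genes tested. The number lower was 3 without PP2Ac-KO replicate 2, PP2Ac-KO replicate 3 or WT replicate 2, and 4 without PP2Ac-KO replicate 1. The inositol trisphosphate receptor Itpr1 (1.81, SE 0.27), the cyclic AMP phosphodiesterase Pde4b (1.06, SE 0.13) and the G protein subunit Gna15 (0.79, SE 0.08) were higher. The adenylyl cyclases Adcy6 (-1.18, SE 0.18), Adcy9 (-0.63, SE 0.08) and Adcy7 (-0.61, SE 0.08), which make cyclic AMP under control of receptors such as Adora2b, were lower. Adcy7, by far the most counted of them, had 217, 215 and 239 CPM in PP2Ac-KO and 326, 324 and 376 CPM in WT. Adcy6 had only 0.671 to 1.66 CPM. The other adenylyl cyclases tested, Adcy3 (-0.12, SE 0.07) and Adcy4 (0.57, SE 0.47), were not called. A list of genes that cyclic AMP, among other signals, induces had 9 tested, with 5 higher and 0 lower by edgeR (median 0.48; 0 lower also at an unadjusted p under 0.05, in DESeq2 and in limma-voom), led by Nr4a3 (1.11, SE 0.23), Dusp1 (1.05, SE 0.11) and Nr4a1 (0.67, SE 0.07).

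Of the 8 genes on the route from P2rx7 to the inflammasome, 6 were higher and 1 lower (median 0.89). The sensor gene Nlrp3 had 235, 188 and 183 CPM in PP2Ac-KO and 74.7, 60.8 and 65.8 CPM in WT (1.59, SE 0.11, adjusted p = 5.4e-05 by edgeR). The cytokine genes Il1b (1.51, SE 0.25) and Il18 (0.98, SE 0.15) were higher too. The potassium channel Kcnk6, which acts beside P2rx7, was lower (-0.26, SE 0.08), a call lost without any 1 of the PP2Ac-KO replicates (-0.24, -0.27 and -0.28) or WT replicate 3 (-0.18).

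**Figure D4:**
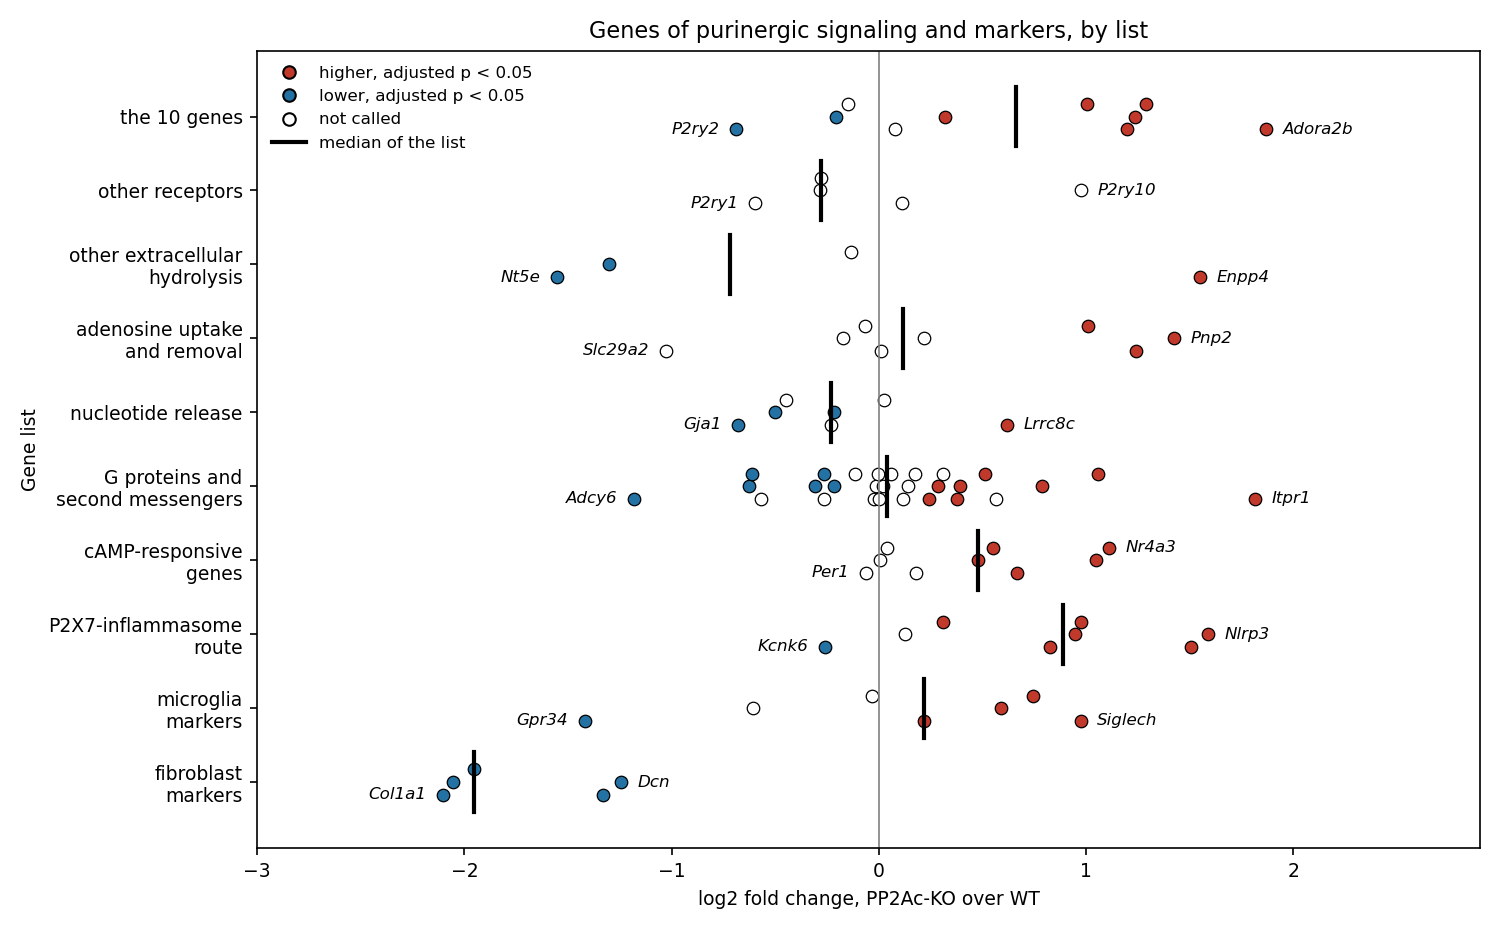
Log2 fold change of PP2Ac-KO over WT (x axis) for every tested gene of each list (y axis), 1 point per gene, filled where called and with a black line at the list's median. The 10 genes have a median of 0.66, the P2X7-inflammasome route of 0.89 and the fibroblast markers of -1.95.

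The 10 genes shared little sequence with other genes. No 50-base window of P2ry2, P2ry6, P2ry12, P2ry13, Adora2a, Adora2b or Entpd1 occurred in the transcripts of another gene, and the highest share was 1.36%, for P2rx4. Among the 10 genes, 7 in PP2Ac-KO replicate 1 and 8 in WT replicate 1 lay above their group mean. Their median deviations were 0.080 and 0.127 on the log2 scale. The same share over all genes tested was not counted, so whether this is particular to the set was not tested. Adora2b, Adora2a, P2ry12 and P2ry14 were highest in replicate 1 of each genotype. The log2 fold change of Adora2b was 1.89 with the replicate block, and 1.69 to 2.17 with 1 library left out.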

How the data were processed

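The authors deposited 1 table of raw read counts per gene for the 6 libraries, with no normalization. The submitters' processing notes name fastp 0.20.0, STAR 2.7.1a, HTSeq 0.11.2, kallisto 0.46.1, edgeR 3.34.0 and limma 3.48.3 with mm10 (GRCm38). The annotation release and strand setting of the counting are not given in the sources used here. Libraries were grouped by the genotype in the labels.

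Tests were run with edgeR 4.0.16 in R 4.3.3 (filterByExpr with a minimum count of 10 and total of 15, TMM, glmQLFit and glmQLFTest for genotype, Benjamini-Hochberg adjustment over the 13680 genes kept). SE is the standard error of the log2 fold change, derived as its absolute value divided by the square root of the quasi-likelihood F statistic. Coordinates and exon lengths came from GENCODE M21 of GRCm38, promoters from RefSeq (GRCm38.p6). RPKM was computed from the deposited counts. A count of 3, taken as the floor, is 0.0604 to 0.0909 CPM, for counting error only. On simulated counts for this comparison over 13680 genes, 97 of 100 genes changed 2-fold and 90 of 100 changed 1.5-fold were found, with 12 false calls. Only 200 genes were changed there, against 37.1% called in the data, and all were better counted than Adora2a. The simulated libraries had no replicate effect, so these rates need not hold for the data.

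Both genotypes carry replicate numbers 1, 2 and 3 in the labels. Deviations from the group means of same-numbered libraries correlated at 0.289, 0.148 and 0.337 over the genes tested, so a fit with the number as a block was made. Also tried were upper-quartile and RLE scaling, no filter, a minimum of 10 counts in each library, DESeq2 1.42.0, limma-voom 3.58.1 and each library left out.

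The genes and lists were chosen with earlier results of these data known. Named genes are all 10 of the set, up to 3 called genes each way per list by size, all of the receptor, extracellular hydrolysis and adenosine uptake lists, neighbours within 50 kb, and the 3 nearest in pattern to the members that rose and fell most. Other genes named from the chromosome 3 region, levels of markers, and genes called only with the block were chosen after their values were seen.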

Additional observations from a re-analysis of the deposited data

How the results depend on the processing

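Of the 10 genes, P2rx4, P2ry2, P2ry12, P2ry13, P2ry14 and Adora2b kept their direction and call in every alternative fit and with each library left out, and P2ry6 was never called. The replicate block changed the call of Entpd1 (log2 fold change -0.15) and of no other of the 10. Entpd1 was also called with upper-quartile scaling (-0.21). P2rx7 was not called with RLE scaling (-0.18) or DESeq2 (-0.18), and ran from -0.26 to -0.17 with 1 library left out. Adora2a ran from 0.85 to 1.22. The number of the 10 called lower was 1 with RLE scaling, 1 in DESeq2, 0 at a log2 fold change under -1 and adjusted p under 0.01, and 1 to 2 with 1 library left out.

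Among other receptors, 1 was called higher with no filter on low counts, with the replicate block and in DESeq2, 1 was called lower with no filter and with the block, and 0 to 1 each way with 1 library left out. On the uptake and removal list, 2 were called lower with upper-quartile scaling, 1 with no filter, 2 with the block, 1 in DESeq2 and 0 to 2 with 1 library left out. For nucleotide release 5 were lower with the block, which raised the genes called lower over all genes from 2604 to 3615 and those called higher from 2470 to 3343. Of the microglial markers 2 were lower with upper-quartile scaling, with no filter and with the block. With 1 library left out, 1 to 4 microglial markers were higher and 1 to 2 lower, 3 to 5 genes for G proteins and second messengers were lower, and 0 to 1 of the P2X7-inflammasome route. Uncalled genes that changed sign were Adk (-0.051 with upper-quartile scaling, -0.018 to 0.047 with 1 library left out), Ncor1 (-0.061 with upper-quartile scaling, -0.0049 with no filter, -0.0014 with at least 10 counts in every library, -0.065 to 0.070 with 1 left out), Ada (-0.22 to 0.019), Ift81 (-0.017 to 0.30) and Cc2d2b (-0.14 to 0.33). The cause was not tested in any of these. With 3 libraries a group, low counts such as those of Adora2a limit what can be called.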
